A study of Felis catus with 6 samples.

Results

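Histones are the proteins around which DNA is wound, and H2A and H3 are subunits of the nucleosome core. The transcripts of 2 histone loci were followed in a feline kidney cell line, LOC101086721, described in the authors' deposited table as a histone H2A type 1-E-like gene, and LOC101093269, described as histone H3.1. They are the only rows, of 633 in that table, whose description begins with "histone H" and names H1, H2A, H2B, H3 or H4. Another 3 rows carry the word histone elsewhere in the description (ASH1L, SETD1B and CECR2) and encode enzymes or readers of histone marks, so they were not counted as histone loci. Both loci were chosen by their measured difference between the groups compared here, since every row of the table has been marked significant by the authors, with an unadjusted p no larger than 0.0498 and at least a 1.5-fold change. The values of both are therefore given as a description, with no test.

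The cells were PETCC2610, described in the labels as a kidney line, and all 6 libraries came from cells treated with DOX, an agent used to make them senescent. In 3 libraries (DOX) nothing else was added, and in the other 3 (DOX+PeptideE) the cells also received peptide E, named in the title of the series as a product of fermentation by Bifidobacterium adolescentis LA20-k9. The comparison asks which transcripts differ with the peptide among senescent cells; cells without DOX were not analysed here, and neither doses nor times are stated in the labels. The replicates are called biological, without a statement of how the cultures were separated, so p-values measure only the spread between these libraries. Of 13 markers of kidney tubule epithelium, 5 are listed (KRT18, KRT7, KRT19, AQP1 and HAVCR1), all of them listed lower with peptide E (the groups overlapped in HAVCR1), while the histone loci are listed higher. Of all protein-coding genes in RefSeq 2.68% are listed, and 340 of the 633 listed genes are listed lower. KRT19, AQP1 and HAVCR1 had low values, at most 2.98, 3.11 and 1.42 in any library. The keratin gene KRT18 ranged from 508 to 632 over the DOX libraries and from 325 to 441 over the peptide E libraries, and KRT7 from 349 to 462 and from 250 to 337. Of 4 blood cell markers, the globin gene HBA1 is listed, also as lower, at 20.9 to 22.3 with DOX and 7.71 to 10.7 with peptide E. What part the movement of these markers has in the histone values was not tested, and markers outside the table were not analysed here. Sequencing depth is not known for any library, and the deposited expression value has no stated unit.

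Replication-type histone genes are transcribed mainly while DNA is copied in S phase, and most of their mRNAs end in a stem-loop in place of a poly(A) tail. Replacement histones, such as H3.3 and H2A.Z, are made outside S phase as well as in it, from polyadenylated mRNAs. The libraries measured here were made from RNA captured on oligo(dT) beads, a step that retains tailed transcripts, so a low value of a replication-type histone gene in them does not measure the whole pool of its mRNA. The H3.1 protein is a replication-type histone in mammals, and type 1 H2A genes belong to the same class. The sequences of these feline loci were not used here, so the class rests on the descriptions in the table. The description of LOC101086721 says only "-like" and names a transcript variant X1, and other genes lie within its span in RefSeq. Whether its mRNA carries a tail was not tested.

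LOC101086721, the H2A-like locus, was detected in all 6 libraries. Its expression value was 0.83, 0.91 and 0.81 in DOX replicates 1, 2 and 3, and 3.65, 2.81 and 4.48 in DOX+PeptideE replicates 1, 2 and 3. The groups did not overlap: the lowest peptide E library lay 1.90 above the highest DOX library. The mean was 0.85 ± 0.0529 with DOX and 3.65 ± 0.835 with peptide E (SD, n = 3 each), a ratio of 4.29. On the log2(value + 1) scale the difference was 1.31. The pseudocount shapes that number at such low values, with 1.96 at a pseudocount of 0.1 and 0.56 at 5.

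LOC101093269, the H3.1 locus, was listed at 0 in all 3 DOX libraries. With peptide E its expression value was 2.77, 1.66 and 1.12 in replicates 1, 2 and 3, so it was detected in 3 of 3. The mean with peptide E was 1.85 ± 0.841 (SD, n = 3), and no fold against a group at 0 is given. Values in the table have 2 decimals and the smallest above 0 is 0.01, so a listed 0 covers anything that rounds to it. Without counts, how many reads lie behind either the zeros or the values above them cannot be stated.

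**Figure D1:**
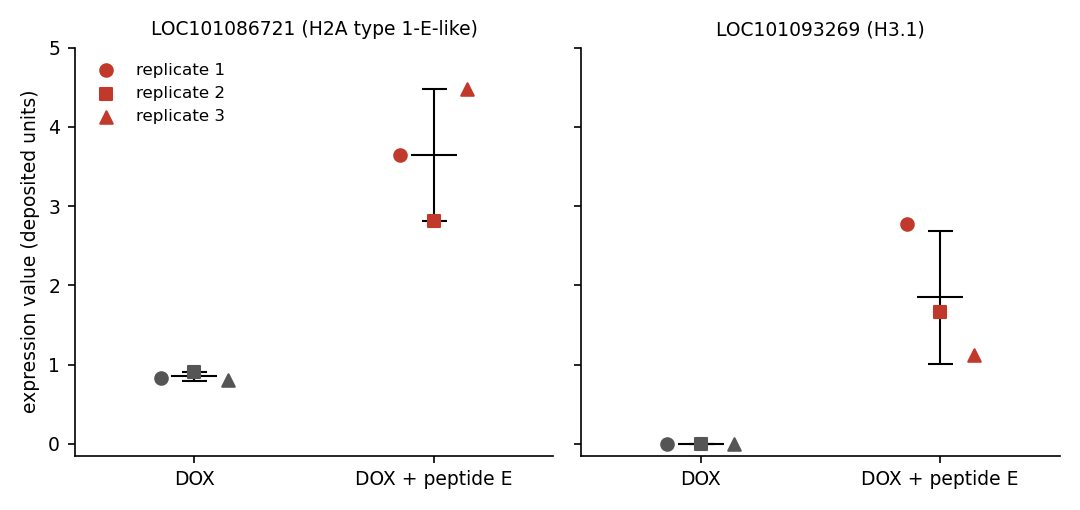
Expression value (deposited units, linear axis) of the H2A-like locus (left) and the H3.1 locus (right) in each library, with replicate number as marker shape; horizontal bars are group means and whiskers are 1 SD (n = 3). DOX libraries sit at 0.81 to 0.91 for H2A-like and at 0 for H3.1, and all peptide E libraries lie higher.

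In the authors' deposited table the fold change of LOC101086721 is 3.52 (log2 1.81) with an unadjusted p of 0.0313, and that of LOC101093269 is 27.4 (log2 4.78) with an unadjusted p of 0.00491. The second fold in the authors' deposited table is the highest of all 633 listed genes, but it stands against libraries listed at 0 and depends on how their model treats a zero. The adjusted p of both loci in the authors' deposited table is 1, as it is for 160 of the 633 listed genes in all. That value does not follow the order of the unadjusted p. ADAT1, with a larger unadjusted p (0.0268) than LOC101093269, has an adjusted p of 0.131 in the authors' deposited table. The reason is not stated, so nothing is read from the value of 1. For LOC101086721 the log2 ratio of the deposited means is 2.10, above the log2 fold change in the authors' deposited table. Over the 196 listed genes whose means reach 5 in both groups, the 2 scales differ in the same direction, by a median of 0.27.

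Among the 633 listed genes, 43.4% had all peptide E libraries above all DOX libraries, as both histone loci did. Since the authors' selection used the same contrast, nothing is read from that count. The pattern of LOC101093269, at 0 in all DOX libraries and above 0 in all peptide E libraries, was seen in 9 listed genes, or 1.42%. In the other 8, peptide E values ran from 0.02 to 0.48, all below the 1.12 of the lowest peptide E library for H3.1. A direct comparison of levels between genes would need values per transcript length, and whether the deposited values are so scaled is not stated.

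**Figure D2:**
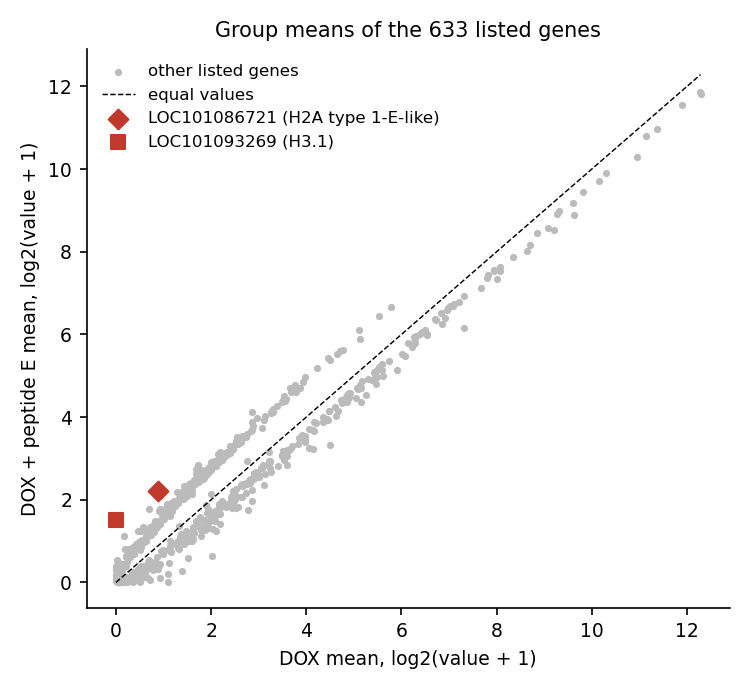
Mean of the peptide E libraries against the mean of the DOX libraries for the 633 listed genes, both as log2(value + 1); the dashed line marks equal values. The H3.1 locus lies on the vertical axis with a DOX mean of 0, the H2A-like locus lies at DOX and peptide E means of 0.85 and 3.65, and the empty band along the line follows from the authors' selection by fold change.

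The peptide E libraries did not rank alike for the histone loci and for most other genes listed higher. Of the 289 genes listed higher with no ties among the peptide E libraries, 229 (79.2%) were lowest in replicate 1 and highest in replicate 3, with replicate 2 between them. LOC101093269 had the reverse ranking, highest in replicate 1 and lowest in replicate 3, as did 8 genes in all (2.77%). LOC101086721 was lowest in replicate 2 and highest in replicate 3, a ranking of 17 genes (5.88%). Both histone loci thus stood among the 60 genes (20.8%) that did not follow the most frequent ranking, and they also differed from each other. These shares are descriptions of 3 libraries, and no test was made.

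**Figure D3:**
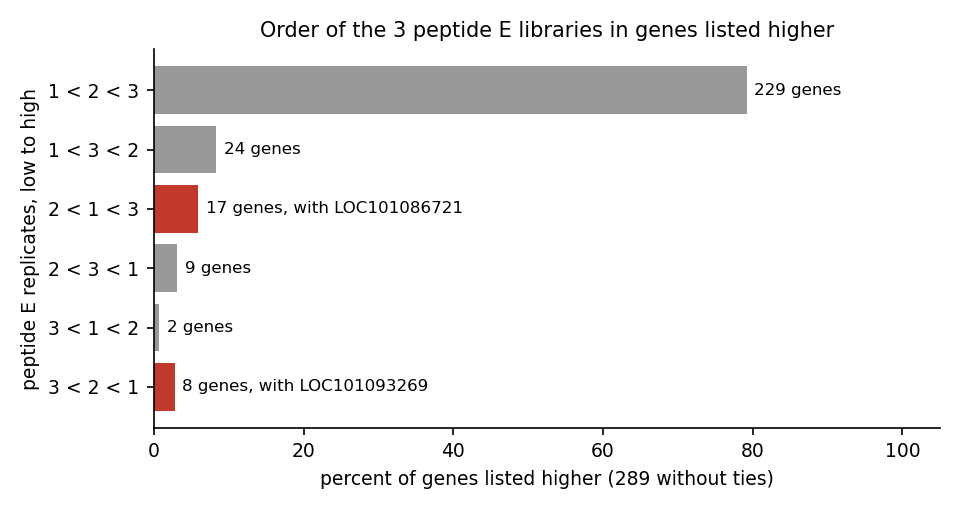
Percent of the 289 genes listed higher that show each possible ranking of the 3 peptide E replicates, from low to high; the number of genes stands beside each bar. The most frequent ranking holds 229 genes, and the rankings of the H2A-like locus (17 genes) and the H3.1 locus (8 genes) are in red.

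The spread between peptide E libraries was wider for H3.1 than for H2A-like. The highest peptide E value was 2.47 times the lowest for LOC101093269 and 1.59 times for LOC101086721, with coefficients of variation of 45.5% and 22.9%. Among 122 other genes listed higher with a peptide E mean between 1 and 5, the median coefficient of variation was 26.6% with quartiles of 21.3% and 31.2%. Of these genes, 4 exceeded LOC101093269 and 80 exceeded LOC101086721. In the DOX libraries LOC101086721 varied by 6.23%, against a median of 11.7% in 95 other genes listed higher with a DOX mean between 0.5 and 2.

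RefSeq's gene table for F.catus_Fca126_mat1.0 holds both symbols. In it the loci lie on the same chromosome with 97 other genes starting between them, 39 of them tRNA genes. The authors' build is not named, so no coordinates are given. Mammalian replication-type histone genes are known to stand in clusters, and around LOC101093269 the 10 nearest genes on each side, tRNA genes aside, include the linker histone genes H1-4, H1-6 and H1-1 as well as HFE, a regulator of iron uptake. None of those 20 neighbours is listed. The span of LOC101086721 in that table contains 3 further genes (LOC101086477, LOC105260538 and LOC105260537), none of them listed. The labels do not say if counting used strand, so reads of these nested genes and of LOC101086721 may not be separable. Histone genes of one class are also near-identical copies, and how the authors' counting split shared reads is not stated; both values are uncertain for that reason.

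The region between the loci holds 1 other listed gene, BTN1A1, a butyrophilin gene known from milk fat globules. Its expression values were 0.69, 0.72 and 0.53 with DOX and 1.24, 1.73 and 1.68 with peptide E. Another uncharacterized RNA locus close to LOC101086721 but outside that interval, LOC102901177, is listed as well, at 0.32, 0.68 and 0.74 with DOX and 0.99, 1.31 and 1.84 with peptide E. Both were lowest in peptide E replicate 1, unlike either histone locus but like 87.5% of the 289 genes listed higher without ties. Both passed the limma test over the listed genes (Benjamini-Hochberg adjusted p = 0.00752 for BTN1A1 and 0.0139 for LOC102901177), which 47.5% of the 499 genes tested did as higher and 23.6% as lower. However, both reached the mean of 1 required for testing only with peptide E. Their means were 0.65 and 0.58 with DOX and 1.55 and 1.38 with peptide E, so nothing is read from these calls. Without DOX replicate 1 the limma adjusted p of LOC102901177 was 0.0695.

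The table holds only 548 of 20453 protein-coding genes in RefSeq (2.68%), so few members of any list can be looked at. Of 28 symbols for the synthesis and 3-prime processing of histone mRNA, among them SLBP, which binds the stem-loop, and NPAT, which drives histone transcription, 0 are listed. Of 21 symbols of replacement histones 0 are listed as well, and 0 of the 9 genes with a histone symbol in the RefSeq table. Of 26 symbols for histone chaperones and nucleosome assembly or remodelling, BPTF alone is listed, a subunit of the remodelling complex NURF. Its values were 1.96, 1.96 and 1.53 with DOX and 2.38, 3.69 and 4.10 with peptide E. It rose by 0.62 on the log2(value + 1) scale (limma adjusted p = 0.0158), a call lost without DOX replicate 3 (adjusted p = 0.0692) or peptide E replicate 2 (0.0688). Genes outside the table have no values here, so their absence gives no level, and at the share of all genes listed these counts are not read as a result about histone supply.

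Of 47 symbols for DNA replication and S phase, 2 are listed (4.26%), both higher, as are 293 of all 633 listed genes (46.3%). MKI67, which encodes the proliferation marker Ki-67, stood at 13.01, 13.04 and 11.56 with DOX and at 18.68, 26.44 and 33.93 with peptide E. TICRR, which is needed to start DNA replication at origins, stood at 3.47, 3.16 and 3.47 with DOX and at 4.99, 7.18 and 8.04 with peptide E. TICRR rose by 0.80 on the log2(value + 1) scale with a standard error of 0.19 (limma adjusted p = 0.00752), and MKI67 by 0.98 with a standard error of 0.20 (0.00741). Both were lowest in peptide E replicate 1, where H3.1 was highest. So were 253 of the 289 genes listed higher without ties (87.5%), so their low replicate 1 is not particular to these genes.

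Of 32 symbols for polyadenylation and nuclear RNA decay, 2 are listed (6.25%), in opposite directions. TENT4A, a polymerase that adds tails to RNA outside the usual cleavage reaction, stood at 4.94, 5.70 and 5.23 with DOX and at 8.15, 10.8 and 12.88 with peptide E. It rose by 0.87 on the log2(value + 1) scale (limma adjusted p = 0.00741). EXOSC4, a subunit of the RNA exosome, stood at 37.95, 27.07 and 32.82 with DOX and at 31.34, 25.9 and 17.9 with peptide E. Its groups overlapped. In the authors' deposited table its fold change is 0.645 (log2 -0.63) with an adjusted p of 0.0446. Its log2(value + 1) difference here was -0.39 with a limma adjusted p of 0.096. That p was 0.0153 without peptide E replicate 1 and 0.0385 after centring each library on its median. In 11 other alternative settings EXOSC4 was not called, with an adjusted p of 0.337 and a difference of -0.18 without peptide E replicate 3.

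A ribosomal RNA locus and a small nucleolar RNA locus, of classes that normally carry no poly(A) tail, were also listed higher. LOC111557932, an 18S ribosomal RNA locus, stood at 2.12, 2.29 and 2.20 with DOX and at 3.53, 4.80 and 4.97 with peptide E. LOC111559637, a small nucleolar RNA Z39 locus, stood at 0.49, 0.52 and 0.30 with DOX and at 0.84, 1.45 and 1.76 with peptide E; it was chosen after its values were seen. In RefSeq this small nucleolar RNA lies within SYNPR, a gene that is not listed. On the log2(value + 1) scale the 18S locus rose by 0.75 and the Z39 locus by 0.69 (limma adjusted p = 0.00752 and 0.0076). The Z39 locus reached the mean of 1 required for testing only with peptide E (1.35, against 0.44 with DOX), so nothing is read from its call. The part of RNA without a tail in the histone values was not tested.

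**Figure D4:**
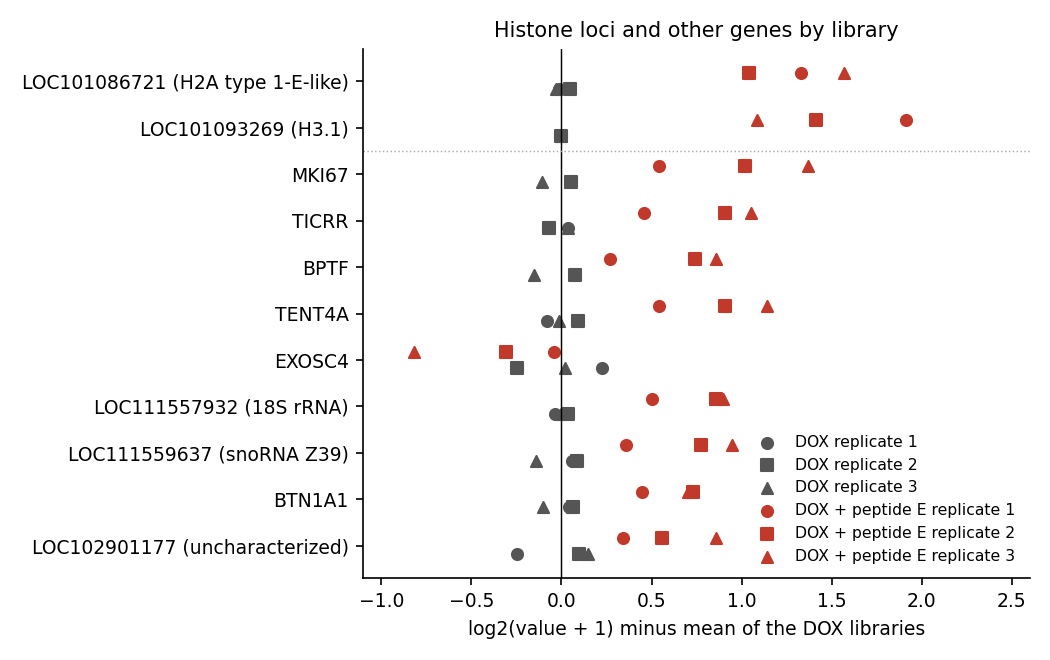
Each library's log2(value + 1) minus the mean of the DOX libraries, for the 2 histone loci (above the dotted line) and 9 other listed genes; grey marks are DOX, red marks are DOX + peptide E, and shape gives the replicate. Peptide E replicate 1 is highest for H3.1 (2.77 as an expression value) and lowest for every other gene shown except the H2A-like locus and EXOSC4. Replicate 1 is also the lowest in 87.5% of the 289 genes listed higher without ties.

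By Pearson's r of log2(value + 1) over the 6 libraries, the listed genes with a symbol most like LOC101086721 were ADAT1 (0.991), a tRNA deaminase gene, FAM120C (0.987), TMEM25 (0.985), SFT2D3 (0.981) and the ion channel gene HCN3 (0.977). Those most like LOC101093269 were ZNF692 (0.966), a zinc finger gene, GRIP1 (0.922), a synaptic scaffold gene, WDR62 (0.920), ADAT1 (0.915) and IZUMO2 (0.897). The 2 histone loci had an r of 0.901 with each other. All of these share the difference between groups for which they were listed, which contributes to each r, and the points share libraries and depth. Of the 5 genes most like the H2A-like locus, ADAT1, FAM120C, TMEM25 and SFT2D3 had its ranking of the peptide E libraries, and of those most like H3.1 only ZNF692 did, at 4.63, 4.33 and 4.24 in replicates 1, 2 and 3.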

How the data were processed

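Per the labels' protocols, mRNA was enriched from total RNA on oligo(dT) beads, copied with random primers and sequenced as pairs of 150 bp. Per the submitters' processing notes, FastQC 0.11.9 and fastp 0.19.5 were used. The sources used here name no aligner, build, annotation or strand setting. The deposited table holds 633 genes with a normalized expression signal per library, without a unit, which the authors computed (the table's name refers to RSEM), the authors' group means, their fold ratio, its log2 value and their p-values. Depth is unknown, so no counting error is given.

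Values were used as deposited and transformed as log2(value + 1), on which fold changes of low genes are understated. The 499 genes whose mean reached 1 in either group were fitted together in limma 3.58.1 (R 4.3.3) using a variance trend, with Benjamini-Hochberg adjustment over these genes and a threshold of 0.05. The script was tested on simulated data. For the H2A-like locus only its log2 difference was taken from the fit; p-values were read for other genes, and the authors selected all of them on the same libraries, so its p-values can be too small. Alternatives were other pseudocounts and filters, no trend, centring, a replicate block and leaving out each library. The histone loci and gene lists were chosen with earlier results of these data known. Named were both loci, listed members of the lists, 5 genes most like each locus and rows of ribosomal RNA; the small nucleolar RNA, BTN1A1, LOC102901177 and the rows naming histones elsewhere were added after their values were seen. RefSeq gave names and neighbours only, and all 633 symbols matched. Planned comparisons of protein and promoter sequences were not made.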

Additional observations from a re-analysis of the deposited data

How the results depend on the processing

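The log2 difference of LOC101086721 was 1.31 as reported, 1.96 at a pseudocount of 0.1 and 0.56 at 5, since its values lie near the pseudocount. It ranged from 1.19 to 1.45 with 1 library left out and was 1.24 after median-centring. Because the groups do not overlap, no library left out could change its sign. The difference in expression value of LOC101093269, 1.85, was 1.66 between group medians, 1.83 after median-centring, and 1.39 to 2.21 (1.39 without peptide E replicate 1) with 1 library left out. Of the listed genes, 355 passed limma, against 203 with a mean of at least 5 required, where fewer genes were tested (287), and 180 to 413 with 1 library left out, lowest without peptide E replicate 2. Genes higher with peptide E made up 66.8% of those calls, and 51.6% of 457 after median-centring. Deviations of same-numbered libraries correlated at 0.336, -0.042 and -0.092, and those of DOX replicate 2 and peptide E replicate 3 at 0.361. Deviations from a mean of 3 libraries constrain each other, so these values cannot show whether the cultures were paired by number. With the replicate number as a block 362 genes passed, and the difference of LOC101086721 was again 1.31, which a balanced block cannot change. No further histone row was found, so the alternatives planned for other histone rows were not run. Without depth, a listed 0 sets no limit on H3.1 transcripts in the DOX libraries.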

Other observations

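By the biotypes of the RefSeq table, the listed genes other than protein-coding ones were mostly lower with peptide E. All 12 listed pseudogenes are listed lower, as are 51 of 71 long noncoding RNA genes, against 277 of 548 protein-coding genes. The 18S ribosomal RNA and small nucleolar RNA loci are the only listed genes of their biotypes, and both are listed higher, as the histone loci are.

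Besides H3.1, the genes listed at 0 in all DOX libraries include AOX1, an aldehyde oxidase gene, at 0.05, 0.12 and 0.05 in peptide E replicates 1, 2 and 3, and EFNB3, an ephrin ligand gene, at 0.09, 0.35 and 0.48. In the opposite direction, 12 listed genes are at 0 in all 3 peptide E libraries.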
